A study of Mus musculus with 6 samples.

Results

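The genes examined here encode the late enzymes of cholesterol synthesis, which close squalene epoxide into lanosterol and convert lanosterol into cholesterol. The group was set by a list of 9 gene symbols, Lss, Cyp51, Tm7sf2, Msmo1, Nsdhl, Hsd17b7, Ebp, Sc5d and Dhcr7, and all 9 were found among the 55536 genes of the count table. All 9 were also among the 17499 genes that passed the filter on low counts. Whole ovaries of 3 Control and 3 M1 female ICR mice aged 10 weeks were sequenced as polyA RNA, with 1 library per mouse and both ovaries of a mouse homogenized together. M1 is a small molecule that promotes mitochondrial fusion. It was injected intraperitoneally at 10 mg/kg, from a stock of 1 mg/ml in DMSO, Tween80 and PBS, at 9 h and 16 h of proestrus after the stage had been read from a vaginal smear at 8 h. The ovaries were taken at 20 h, so that 11 h had passed since the first dose and 4 h since the last. The labels describe the estrous cycle as normal in the Control mice and disrupted in the M1 mice, and they do not state what the Control mice were injected with. The comparison asks how the transcripts of these enzymes differed between the groups, with and without Control mouse 1, whose library stood apart from the other Control libraries.

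Cholesterol is built from acetyl-CoA through mevalonate and squalene, and the late steps then remove methyl groups from lanosterol and move and reduce its double bonds. Steroidogenic cells of the ovary use cholesterol to make progesterone, androgens and estradiol, and they obtain it by uptake of lipoproteins as well as by synthesis. Genes of the pathway are known targets of the transcription factor SREBP-2, which is activated when sterols in the endoplasmic reticulum are low and which works with the promoter-binding factors NF-Y and Sp1. The products of Cyp51 and Tm7sf2 are also known as meiosis-activating sterols, which act on oocytes in culture.

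Matches to 4 short motifs were searched on both strands of the RefSeq promoter windows (GRCm38.p6), from 250 bases before to 50 bases after each annotated start. These were the NF-Y box CCAAT, the GC box GGGCGG bound by Sp1, the sterol element TCACNCCAC and the E-box CACGTG, none of which is contained in another. All 9 genes had at least 1 window with an NF-Y box and at least 1 with a GC box, while 37.4% and 35.7% of all 32851 promoter windows held them and 12.8% held both. Of the 6 genes of the upstream pathway with a window in the table, 5 had an NF-Y box and 5 a GC box. Dhcr7 has 3 annotated starts, and only the window of the third start held both motifs. The sterol element in this spelling was in the window of 0 of the 9 genes and in 1.24% of all windows. The E-box was in windows of Hsd17b7, Sc5d and Dhcr7 and in 7.15% of all windows. The matches are a description of letters in these windows and no binding was measured.

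The sequences below are shown because they set 2 genes that were higher in every M1 mouse, Ebp and Nsdhl, beside 2 that were not, Sc5d and Hsd17b7. Each is the longest stretch of the 250 bases before the start that lies outside every annotated exon of GENCODE vM21. Capitals mark matches to the motifs on either strand, so that CCAAT read from the other strand appears as ATTGG and GGGCGG as CCGCCC.
Ebp (chrX:8193513-8193762, minus strand): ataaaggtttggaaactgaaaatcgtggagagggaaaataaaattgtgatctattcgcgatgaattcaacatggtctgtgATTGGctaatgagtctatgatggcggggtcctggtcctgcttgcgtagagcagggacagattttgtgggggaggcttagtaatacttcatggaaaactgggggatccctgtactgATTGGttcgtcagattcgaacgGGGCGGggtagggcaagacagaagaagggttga
Nsdhl (chrX:72918412-72918520, plus strand): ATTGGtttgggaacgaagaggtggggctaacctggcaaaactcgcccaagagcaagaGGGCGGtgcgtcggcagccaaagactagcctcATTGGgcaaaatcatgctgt
Sc5d (chr9:42264301-42264550, minus strand): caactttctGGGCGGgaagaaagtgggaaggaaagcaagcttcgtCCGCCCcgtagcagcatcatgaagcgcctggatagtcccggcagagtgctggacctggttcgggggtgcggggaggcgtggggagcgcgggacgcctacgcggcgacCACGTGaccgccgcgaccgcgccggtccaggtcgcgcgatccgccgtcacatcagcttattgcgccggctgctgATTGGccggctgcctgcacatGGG
Hsd17b7 (chr1:169969242-169969408, minus strand): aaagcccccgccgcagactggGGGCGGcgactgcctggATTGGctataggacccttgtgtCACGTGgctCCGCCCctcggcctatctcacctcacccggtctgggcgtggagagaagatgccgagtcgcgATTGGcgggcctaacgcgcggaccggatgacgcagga
In Ebp, 2 NF-Y boxes stood 170 and 55 bases before the start and a GC box stood 33 bases before it. In Nsdhl, the 250 bases before the start held 112 bases in exons of the neighbouring gene Cetn2. All bases upstream of the printed stretch were left out. The last capitals of Sc5d are the beginning of a GC box that runs across the start, and Sc5d also held the E-box printed in capitals. Hsd17b7 held an E-box beside NF-Y and GC boxes. There 83 exon bases were left out, and they held an NF-Y box 12 bases and a GC box 227 bases before the start. Lss and Msmo1, which were also not higher in every M1 mouse, had no E-box in their windows. For Tm7sf2 the whole window lay in exons of Tm7sf2 and its neighbour Vps51, so no sequence of it is shown.

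**Figure D1:**
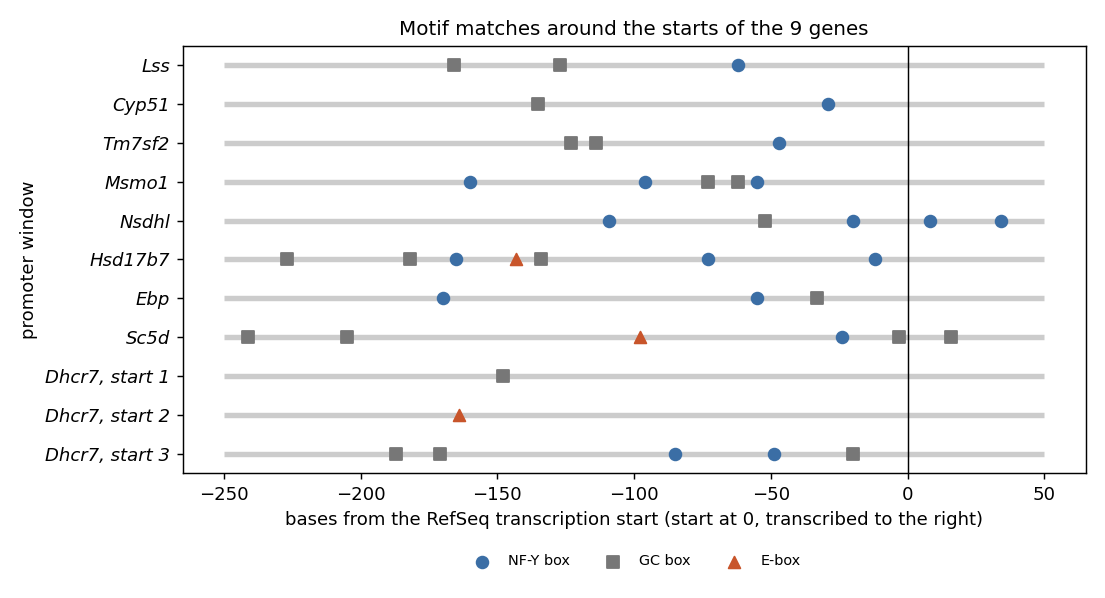
Motif matches in the promoter windows of the 9 genes, with the distance from the annotated start in bases on the x axis and 1 row per window (3 for Dhcr7). Blue circles are NF-Y boxes, grey squares are GC boxes and red triangles are E-boxes, and each gene has at least 1 NF-Y box and 1 GC box in a window.

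The libraries held 12536440 to 18651402 counts assigned to genes. The 9 genes had 631 to 54820 counts in a library, and counting error alone was 3.98% of the smallest of these values. Counts were compared by edgeR's quasi-likelihood test, with p-values adjusted by the Benjamini-Hochberg method over all tested genes, and a gene was called at an adjusted p under 0.05 with a fold change above 1.5. Levels of 1 gene across mice are given as CPM, the counts of a library rescaled to a common total after TMM normalization. The share of counts from the mitochondrial genome was 3.82% to 5.14% in Control and 5.98% to 7.35% in M1 libraries. Markers of granulosa, theca, luteal cells and oocytes, the defining cells of the ovary, were detected in every library with none at 0. Control mouse 1 stood apart from the other Control mice over all tested genes. Its root mean square difference in log2 CPM was 0.76 and 0.75 to Control mice 2 and 3 and 0.81 to M1 mouse 2, but 0.62 and 0.60 to M1 mice 1 and 3, while Control mice 2 and 3 differed by 0.56. Control mouse 1 was thus nearer to 2 of the M1 mice than to its own group. It was not the only distant library, since M1 mouse 2 differed by 0.65 to 0.81 from the others. Since these were whole organs, fewer cells of a type and less RNA per cell cannot be told apart.

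All 9 genes had a positive fitted log2 fold change in M1 against Control, while 49.5% of all tested genes did. The median over the 9 genes was 0.61, beside -0.005 over all tested genes. Ebp, Tm7sf2, Nsdhl and Cyp51 were higher in each of the 3 M1 mice than in each of the 3 Control mice, a pattern that 11.4% of tested genes showed. The same 4 genes had an unadjusted p under 0.05 with a higher level in M1, as had 7.7% of tested genes. None of the 9 was called by edgeR over all 6 mice, where 1 gene in all was called higher (0.00571%) and that gene has no symbol in the files. DESeq2 called 3 of the 9 higher, Ebp, Tm7sf2 and Nsdhl, beside 1.5% of the genes to which it gave an adjusted p. In edgeR without a filter on low counts the count was also 3 of 9, beside 0.231% of genes.

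**Figure D2:**
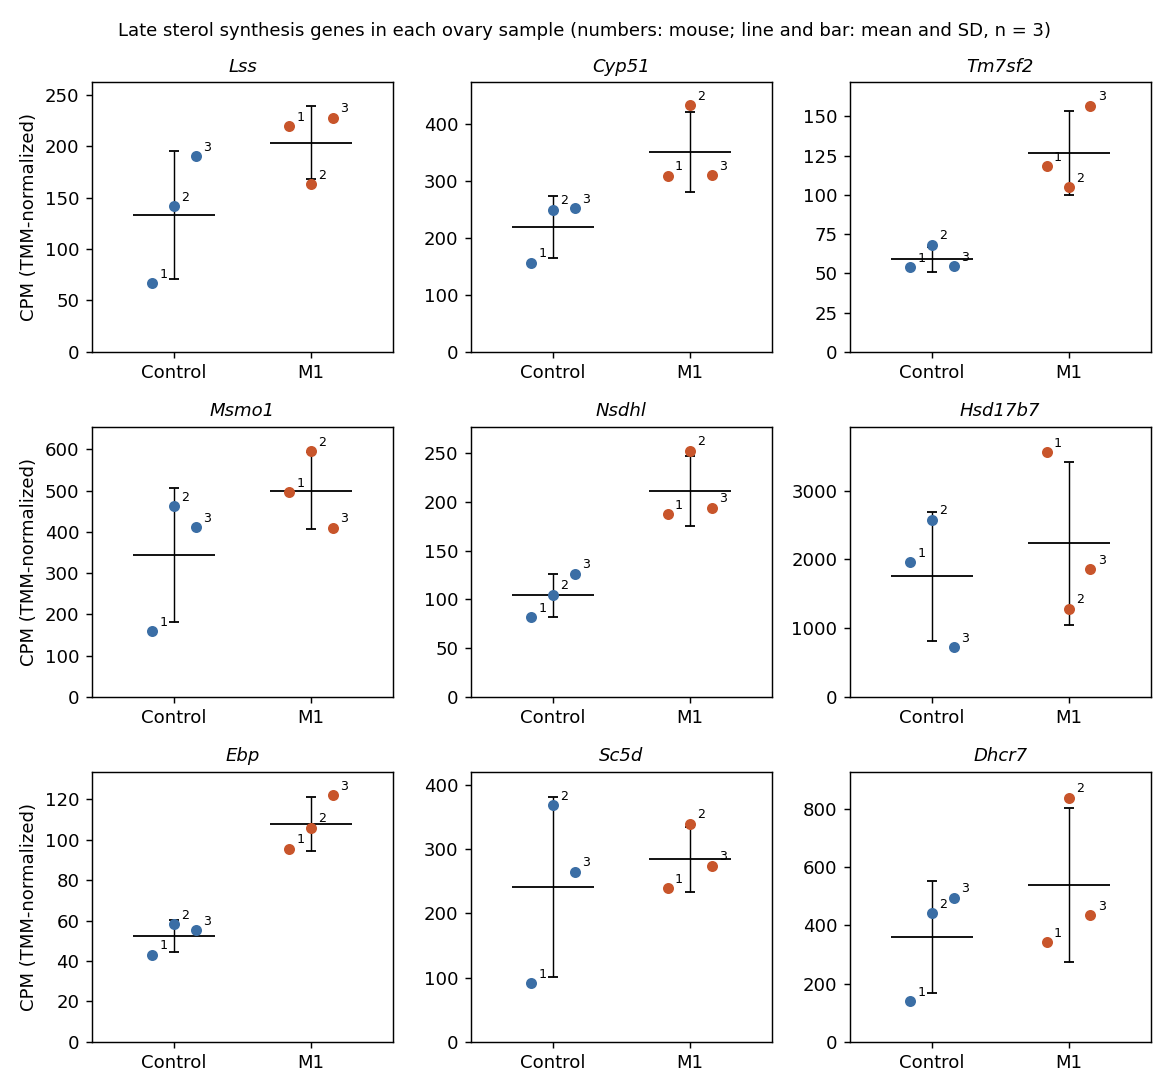
Level of each of the 9 genes in each mouse, in TMM-normalized CPM on a linear axis that starts at 0, with blue points for Control, red points for M1, the mouse number beside each point, and the mean and SD over 3 mice in black. The M1 points lie above all Control points for Cyp51, Tm7sf2, Nsdhl and Ebp, and Control mouse 1 is the lowest point in 8 of the 9 genes.

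Ebp, which encodes the isomerase that shifts the double bond in the sterol ring, had the smallest p of the group. Its level was 43.1, 58.1 and 55.2 CPM in Control mice 1 to 3 and 95.6, 106 and 122 CPM in M1 mice 1 to 3. The groups were well separated, with the lowest M1 mouse above the highest Control mouse by more than the range of the Control mice. The fold change was 2.07 (log2 1.05 ± 0.16, SE, n = 3 and 3, edgeR adjusted p = 0.195), and DESeq2 gave an adjusted p of 2.36e-05. Leaving out each mouse in turn kept the log2 fold change between 0.93 and 1.14. Ebp lies on the minus strand of chromosome X at 8185329 to 8193512 (GRCm38).

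Tm7sf2 encodes a sterol reductase that acts on the product of Cyp51, an activity shared with Lbr. It was at 54.1, 68.1 and 54.4 CPM in Control mice and at 118, 105 and 157 CPM in M1 mice. Every M1 mouse exceeded every Control mouse, and M1 mouse 3 was the highest. The fold change was 2.15 (log2 1.10 ± 0.18, SE, n = 3 and 3, edgeR adjusted p = 0.195, DESeq2 adjusted p = 7.14e-05). Tm7sf2 lies on the minus strand of chromosome 19 at 6062821 to 6068373, and 532 bases (12.1%) of its exons are shared with Vps51 on the same strand, so reads there cannot be assigned to 1 gene by position.

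Nsdhl encodes the dehydrogenase that removes the carboxyl group left by oxidation of a methyl group. It was at 81.8, 105 and 126 CPM in Control mice and at 187, 253 and 194 CPM in M1 mice. The groups did not overlap, and the highest value was that of M1 mouse 2. The fold change was 2.03 (log2 1.02 ± 0.19, SE, n = 3 and 3, edgeR adjusted p = 0.195, DESeq2 adjusted p = 0.00102). Nsdhl lies on the plus strand of chromosome X at 72918557 to 72958514.

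Cyp51 encodes the demethylase that acts first on lanosterol. It was at 156, 249 and 252 CPM in Control mice and at 309, 432 and 310.1 CPM in M1 mice. The groups did not overlap, but the distance between the nearest mice was smaller than for the preceding genes relative to the spread. The fold change was 1.60 (log2 0.68 ± 0.23, SE, n = 3 and 3, edgeR adjusted p = 0.238), and DESeq2 did not call it either (adjusted p = 0.0836). Cyp51 lies on the minus strand of chromosome 5 at 4081145 to 4104746, with 166 exon bases (3.76%) overlapped by Akap9 on the opposite strand.

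Lss, Msmo1, Sc5d and Dhcr7 had positive fold changes whose SE was large, and their groups overlapped. Lss, the cyclase that makes lanosterol, was at 66.7, 142 and 190.3 CPM in Control mice and at 219, 163 and 228 CPM in M1 mice. M1 mouse 2 lay below Control mouse 3, and the log2 fold change was 0.61 ± 0.35 (SE, n = 3 and 3, edgeR adjusted p = 0.395). Msmo1, the oxidase that starts removal of the paired methyl groups, was at 159, 462 and 411 CPM in Control mice and at 496, 595 and 409.6 CPM in M1 mice. Control mouse 1 was far below the other Control mice, and M1 mouse 3 was level with Control mouse 3 (log2 fold change 0.54 ± 0.37, SE, adjusted p = 0.482 by edgeR).

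Sc5d, the desaturase that makes the dehydrocholesterol ring system, was at 91.1, 369 and 265 CPM in Control mice and at 239, 339.65 and 274 CPM in M1 mice. Control mouse 2 was the highest and Control mouse 1 the lowest of all 6, and the M1 mice lay between them (log2 fold change 0.24 ± 0.44, SE, edgeR adjusted p = 0.815). Dhcr7, the reductase that makes cholesterol from its dehydro precursor, was at 139, 441 and 496 CPM in Control mice and at 343, 839 and 434 CPM in M1 mice. M1 mouse 2 was the highest, and the other M1 mice lay below Control mice 2 and 3 (log2 fold change 0.59 ± 0.50, SE, edgeR adjusted p = 0.576). Lss, with 381 exon bases (3.53%) overlapped by an antisense gene, lies on chromosome 10 at 76531588 to 76557138, Msmo1 on chromosome 8 at 64718139 to 64733792, Sc5d on chromosome 9 at 42251595 to 42264256 and Dhcr7 on chromosome 7 at 143823145 to 143848410.

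Hsd17b7 encodes the ketosteroid reductase of the removal of the methyl groups, and in rodents it is also known as a protein of the corpus luteum that associates with the prolactin receptor and converts estrone to estradiol. Its level was 1957, 2578 and 723 CPM in Control mice and 3561, 1282 and 1857 CPM in M1 mice. It was lowest in Control mouse 3 and highest in M1 mouse 1, an order that no other gene of the 9 showed. The log2 fold change was 0.35 ± 0.51 (SE, n = 3 and 3, edgeR adjusted p = 0.762), and it became -0.02 without Control mouse 3 and -0.15 without M1 mouse 1. Hsd17b7 lies on the minus strand of chromosome 1 at 169949535 to 169969241.

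Control mouse 1 was the lowest of the 6 libraries for 8 of the 9 genes, the exception being Hsd17b7. Its level relative to the mean of Control mice 2 and 3 was 0.288 for Sc5d, 0.296 for Dhcr7, 0.365 for Msmo1 and 0.402 for Lss, so these 4 genes were below 0.5. It was 0.624 for Cyp51, 0.708 for Nsdhl, 0.761 for Ebp, 0.883 for Tm7sf2 and 1.19 for Hsd17b7. Over 17496 genes, 6.26% had a ratio below 0.5, and the median ratio was 0.999. The 4 genes below 0.5 all had groups that overlapped, and the 4 genes that separated the groups had ratios nearer to 1.

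Without Control mouse 1, Ebp (log2 fold change 0.93 ± 0.14, SE, adjusted p = 0.0352), Tm7sf2 (1.05 ± 0.20, adjusted p = 0.0445) and Nsdhl (0.87 ± 0.18, adjusted p = 0.0468) were called higher in M1 by edgeR over 2 Control and 3 M1 mice. Of all 17994 genes tested there, 1.28% were called higher and 3.07% lower, and none of the 9 was called lower. Cyp51 kept separate groups but was not called (0.48 ± 0.18, adjusted p = 0.151). The same 4 genes as before were higher in every M1 mouse, beside 22.4% of all tested genes, and 4 of the 9 had an unadjusted p under 0.05 with a higher level, beside 12.3%. A positive fold change remained for 8 of the 9, beside 51% of all genes, and the median fell to 0.43.

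Of the 5 genes whose groups had overlapped, 3 came nearer to 0 in that fit, Lss at 0.29 ± 0.20, Msmo1 at 0.19 ± 0.18 and Dhcr7 at 0.20 ± 0.36 (log2 fold change and SE, 2 Control and 3 M1 mice). Sc5d changed sign, to -0.16 ± 0.21, and Hsd17b7, which was not low in Control mouse 1, came to a larger value of 0.43 ± 0.61. The edgeR adjusted p-values of these 5 genes ran from 0.390 to 0.768. The intervals of these values are wide, and they do not show that the levels were equal.

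**Figure D3:**
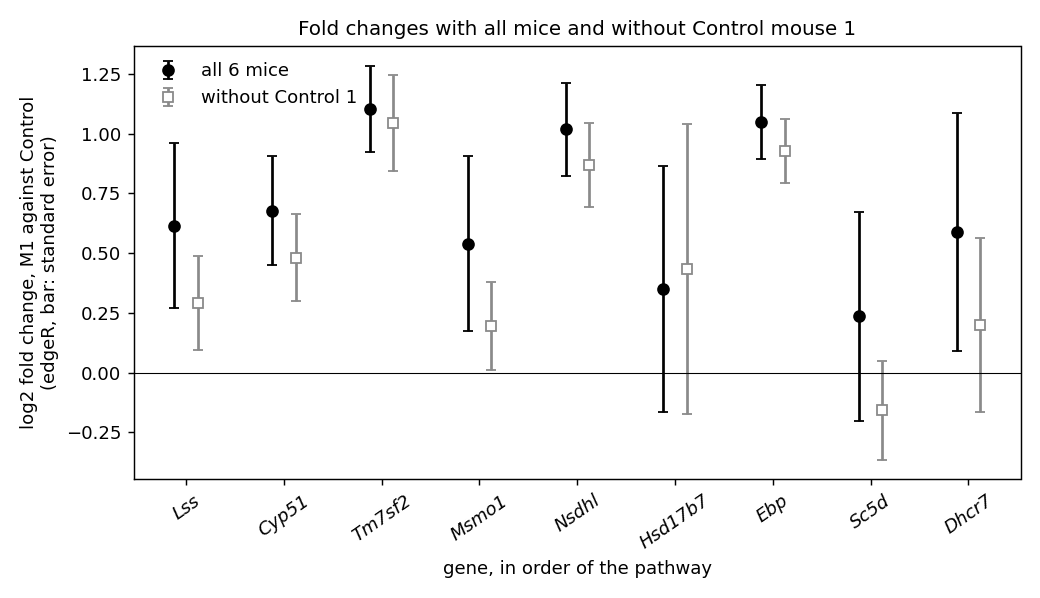
Fitted log2 fold change of M1 against Control with its standard error for each gene in pathway order, over all 6 mice (black circles) and without Control mouse 1 (open squares). Tm7sf2, Nsdhl and Ebp stay between 0.87 and 1.10, while Sc5d goes from 0.24 to -0.16.

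Control mouse 1 also had the lowest summed TPM of luteal markers, as well as of theca and interstitial (15848) and macrophage markers (107). It had the highest summed TPM of oocyte (1027), granulosa (4766) and smooth muscle markers (974). The summed TPM of the 5 luteal markers was 1893 in Control mouse 1, 11966 and 7979 in the other Control mice and 3732 to 18354 in the M1 mice, with none of the markers at 0. The low sum came from Akr1c18, Star and Ptgfr, whose levels in Control mouse 1 were 0.00175, 0.162 and 0.489 of the mean of the other Control mice, while Lhcgr (0.959) and Prlr (1.02) were not low there. Prlr, the prolactin receptor, was higher in every M1 mouse, at 2529.8, 1794 and 1846 CPM against 1377, 1527 and 1169 CPM in Control mice (log2 fold change 0.60 ± 0.21, SE, edgeR adjusted p = 0.244). Akr1c18, which degrades progesterone in luteal cells and was chosen after its values were seen, was at 3.08 CPM in Control mouse 1, at 2394 and 1125 CPM in Control mice 2 and 3 and at 394, 5939 and 379 CPM in the M1 mice. Star, the carrier of cholesterol into mitochondria, was at 699 CPM in Control mouse 1 against 4407 and 4242 CPM in the other Control mice and 1427, 4982 and 1990.3 CPM in the M1 mice. Cyp11a1, the side-chain cleavage enzyme, was at 3535 CPM there against 11304 and 7318 CPM. The groups overlapped for Akr1c18, Star and Cyp11a1, and the part of luteal RNA in the sterol results was not tested. Without both Control mouse 1 and M1 mouse 2, the libraries with the least and the most Akr1c18, Ebp (0.95 ± 0.15), Tm7sf2 (1.17 ± 0.18) and Nsdhl (0.73 ± 0.13) were called higher by edgeR, with adjusted p-values of 0.0343, 0.0352 and 0.0401 (log2 fold change and SE, 2 mice in each group, chosen after the data were seen). In that fit 1.71% of all genes were called higher and 3.32% lower. The median log2 fold change of the luteal markers was 0.32 over all mice and 0.30 without Control mouse 1 alone. Without both mice it was -0.43. Akr1c18 (-2.18 ± 0.36) and Star (-1.33 ± 0.23) were called lower in M1 there (edgeR adjusted p = 0.0379 and 0.0399). The mice left out were the lowest Control and the highest M1 mouse for both genes. That choice by itself moves both genes lower in M1, so this fit cannot show whether luteal markers differed between the groups. The 7 granulosa markers were all positive, and Inhba, a subunit of activin and inhibin (1.31 ± 0.23), and Cyp19a1, the aromatase (1.39 ± 0.18), were called higher (edgeR adjusted p = 0.0392 and 0.0307).

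The other cell type markers moved with the groups to different extents. The 7 oocyte markers all had negative fold changes (median -0.61), 4 of them at an unadjusted p under 0.05 beside 9.17% of all genes lower, and their summed TPM was 571 to 1027 in Control and 274 to 548 in M1 mice. Without Control mouse 1 their median was -0.36, with 6 of 7 negative and 1 of 7 at an unadjusted p under 0.05 beside 14.6% of all genes. The 5 stroma markers had a median of -0.36, with a summed TPM of 946 to 1151 in Control and 815 to 838 in M1 mice. The 7 granulosa markers had a median of 0.02, with 2067 to 4285 in M1 mice against 3235 to 4766 in Control mice, and the 5 theca and interstitial markers had a median of 0.20, with 17763 to 28830 against 15848 to 23330. All 5 smooth muscle markers had negative values (median -0.33), with a summed TPM of 509 to 699 in M1 against 720 to 974 in Control mice. In TPM, 21.5% of genes were lower in every M1 mouse and 4.34% higher, beside 11.2% and 11.4% in CPM. Sums of TPM thus lean lower in M1. In CPM, 0 of 5 smooth muscle, 2 of 7 oocyte and 2 of 5 stroma markers were lower in every M1 mouse, and 1 stroma marker was higher. The 5 endothelium markers had a median of -0.17 (147 to 222 TPM in M1 against 183 to 290 TPM in Control mice), the 5 macrophage markers one of 0.15 (144 to 166 against 107 to 235 TPM) and the 6 markers of surface epithelium one of 0.29 (86.6 to 132 against 115 to 138 TPM). The 4 blood markers summed to 71.0 to 1281 TPM in M1 and 200 to 496 TPM in Control mice, and the 6 adipocyte markers to at most 22.95 TPM. Some blood and adipocyte markers were at 0 in some libraries, and none of the others was.

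No marker was called by edgeR over all 6 mice, while DESeq2 called 1 lower, the oocyte marker Nlrp5, beside 1.79% of all genes. In the fit without Control mouse 1, in which Ebp, Tm7sf2 and Nsdhl were called, edgeR also called 4 markers lower in M1 beside the 3.07% of all genes given above. These were Nlrp5 (-1.44 ± 0.30), Pdgfra of stroma (-0.91 ± 0.12), Kdr of endothelium (-0.76 ± 0.11) and Adgre1 of macrophages (-1.78 ± 0.36), with adjusted p-values from 0.0323 to 0.0496 (log2 fold change and SE, edgeR, 2 Control and 3 M1 mice). Nlrp5, Pdgfra and Kdr were also called lower without both Control mouse 1 and M1 mouse 2. Their part in the results for the 9 genes was not tested.

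The fold change also varied with gene length over all genes, from a median log2 of 0.32 among the shortest to -0.16 among the longest genes when all were split by length into 10 bins of equal size. Ebp and Nsdhl, with 2310 and 2853 exon bases, lie in bins 3 and 4 counted from the shortest, whose medians were 0.12 and 0.07, and the other late genes lie in bins 6 to 10. With an offset for length the log2 fold change was 0.94 ± 0.16 for Ebp, 1.14 ± 0.18 for Tm7sf2, 0.96 ± 0.20 for Nsdhl and 0.72 ± 0.22 for Cyp51 (SE, n = 3 and 3).

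Other genes that act in the late steps were also measured. Erg28, whose yeast homologue tethers sterol enzymes to each other, was at 45.3, 35.7 and 47.0 CPM in Control and 50.9, 73.2 and 63.8 CPM in M1 mice (log2 fold change 0.55 ± 0.17, SE, edgeR adjusted p = 0.225) and did not overlap between the groups. Pgrmc1, a haem protein known to bind Cyp51, had a log2 fold change of 0.30 ± 0.15 (adjusted p = 0.345), and Lbr one of -0.19 ± 0.18 (adjusted p = 0.631, both edgeR).

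The 10 genes of the upstream pathway from acetyl-CoA to squalene epoxide had a median log2 fold change of 0.46, with 9 of 10 positive and 0 called by edgeR or DESeq2. At an unadjusted edgeR p under 0.05, 2 of the 10 were higher, beside 7.7% of all genes. These were Pmvk, a kinase of mevalonate phosphate (0.60 ± 0.21), and Acat2, the thiolase that opens the pathway (0.74 ± 0.29). Fdps, the farnesyl diphosphate synthase (1.02 ± 0.48), and Mvd, which makes isopentenyl diphosphate (0.93 ± 0.46), had larger values with larger SE (log2 fold change, n = 3 and 3, edgeR adjusted p = 0.328 and 0.343). Control mouse 1 was below 0.5 of the mean of the other Control mice for 7 of these 10 genes. Without it the median was 0.13, and Idi1, the isomerase of isopentenyl diphosphate, was called lower in M1 (-1.08 ± 0.18, edgeR adjusted p = 0.0390).

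Genes that control the pathway or move cholesterol were divided in direction over the 6 mice, unlike the 9 genes. Of 20 genes of SREBP control, sterol uptake and export, 19 were tested, with 9 positive and 10 negative fold changes and a median of -0.02. This even split rested on Control mouse 1, since without it 5 were positive and 14 negative, the median was -0.23 and 8 were lower in every M1 mouse, beside 23.7% of all genes. None was called by edgeR or DESeq2, 0 were higher at an unadjusted p under 0.05 and 3 were lower, beside 9.17% of all genes lower (5 without Control mouse 1, beside 14.6%). The 3 over all 6 mice were Mbtps1, the protease that cleaves SREBP (-0.53 ± 0.14), Abca1 (-0.47 ± 0.17) and Abcg1 (-0.65 ± 0.27), which export cholesterol (log2 fold change and SE, n = 3 and 3). Srebf2, which encodes SREBP-2, was at 113, 205 and 203 CPM in Control and 182, 194 and 137 CPM in M1 mice (-0.02 ± 0.25, edgeR adjusted p = 0.971). The lowest mouse was Control mouse 1, and the M1 mice fell within the Control range. Mylip, a ubiquitin ligase of sterol uptake (-0.34 ± 0.17, edgeR adjusted p = 0.351), was lower in every M1 mouse.

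Of 6 SREBP targets in fatty acid synthesis, 5 had negative values and the median was -0.11, but without Control mouse 1 all 6 were negative and the median was -0.42. The lowest was Acaca, the carboxylase of the pathway (-0.33 ± 0.23, edgeR adjusted p = 0.497), followed by Elovl6 (-0.24 ± 0.32), Acly (-0.12 ± 0.37) and Scd2 (-0.11 ± 0.43). Of 13 genes of steroid hormone synthesis and its control, 9 had positive values with a median of 0.20, and 0 had an unadjusted p under 0.05 by edgeR (2 by DESeq2, both higher, beside 7.83% of all genes). Star (-0.15 ± 0.70) and Cyp11a1 (0.20 ± 0.45) had an SE above the size of the fold change. Cyp19a1, the aromatase (1.13 ± 0.51), Hsd3b1 (0.51 ± 0.25), Fdxr (0.46 ± 0.28) and Lhcgr (0.32 ± 0.24) had the smallest p-values of that list, and none was called (log2 fold change and SE, n = 3 and 3).

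**Figure D4:**
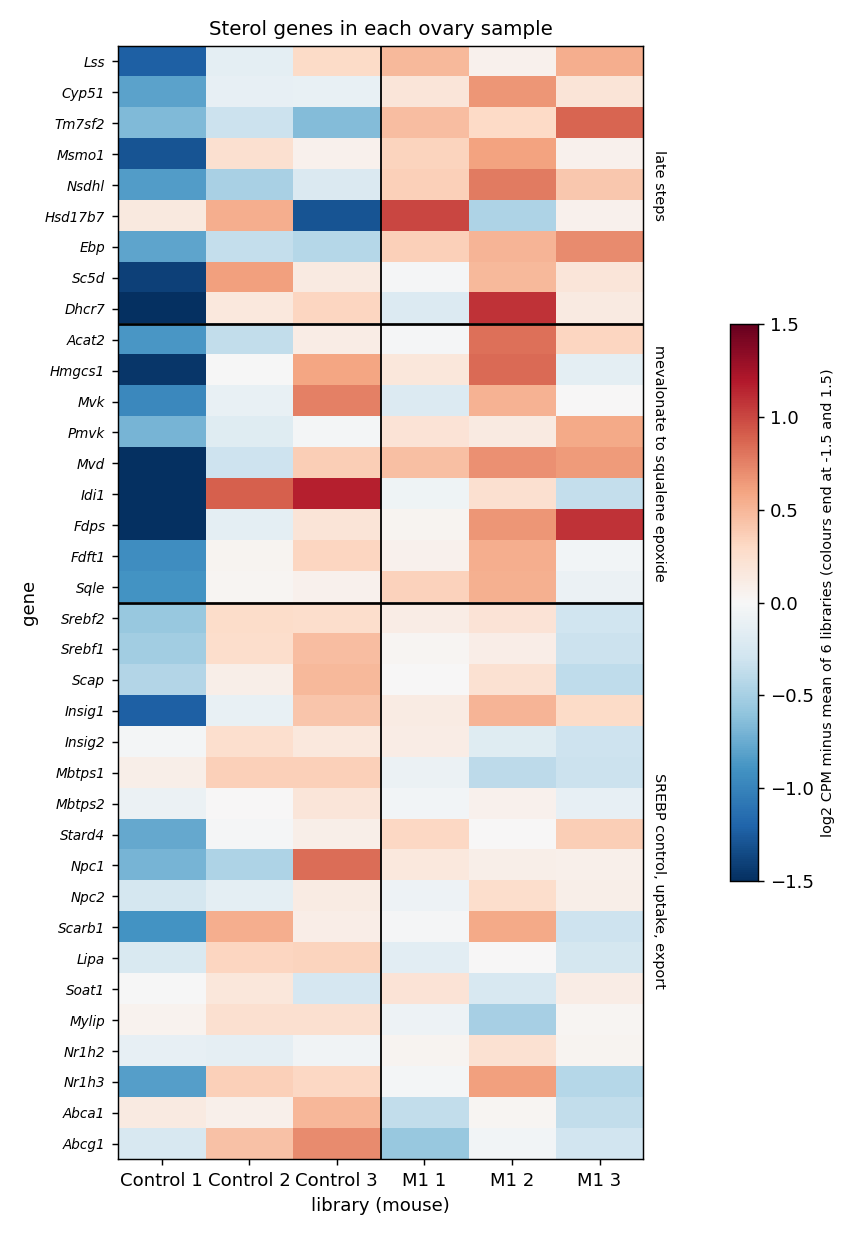
Log2 CPM of each gene minus its mean over the 6 libraries, with genes in rows (the 9 late genes, then genes of the upstream pathway and of SREBP control, uptake and export) and mice in columns, blue below and red above the mean, with colours ending at -1.5 and 1.5. The column of Control mouse 1 is blue for 8 of the 9 late genes, and Hsd17b7 has its lowest value in Control mouse 3.

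The 9 genes differed in how alike they were across mice. As a description over 6 libraries that share the group difference and Control mouse 1, the Pearson correlation of each gene with the mean of the other 8 in centred log2 CPM was 0.74 to 0.93 for 8 genes and -0.03 for Hsd17b7. Without Control mouse 1 it was 0.90 for Ebp, 0.82 for Tm7sf2, 0.81 for Nsdhl, 0.79 for Cyp51 and 0.54 for Msmo1, but 0.17 for Lss, 0.03 for Dhcr7 and -0.11 for Sc5d over 5 libraries. Ebp and Tm7sf2 were the most alike pair, with r = 0.96 both with and without that mouse. Hsd17b7 was nearer to Lhcgr, the luteinizing hormone receptor (r = 0.89), Cyp17a1 (r = 0.87) and Prlr (r = 0.72), than to the other sterol genes, as picked from 15 steroid and luteal genes after the values were seen. The other luteal markers did not share this, with r = 0.34 for Ptgfr, -0.22 for Akr1c18 and -0.47 for Star. The lowest of the 15 was Nr5a2 (r = -0.61).

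Of 12251 other genes with a mean of at least 5 CPM, those most like the mean of the 9 over the 6 libraries were Sobp (r = 0.989), Ghdc (0.988), Dand5 (0.987), Coq10a (0.986), Nrbp1 (0.984), Mon1a (0.984), Als2cl (0.983), Mir22hg (0.982), Coq10b (0.982) and Phf11d (0.981). Their log2 fold changes ran from 0.12 for Nrbp1 to 0.62 for Mon1a, none was called by edgeR, and 159 genes in all had an r above 0.9. Among the listed sterol genes, Mvd (0.920) and Fdps (0.906) were the most alike over 6 libraries, and without Control mouse 1 they had r = 0.58 and 0.55.

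Levels of different genes were compared per length, as deposited TPM. Hsd17b7 had the highest level in every mouse, from 485 to 2224 TPM, with a mean of 1164 ± 608 in Control and 1345 ± 789 in M1 mice (SD, n = 3). The next, Dhcr7, Msmo1 and Cyp51, had means of 208 ± 110, 189 ± 85.1 and 168 ± 38.3 TPM in Control and 272 ± 113, 243 ± 34.9 and 237 ± 30.9 TPM in M1 mice. The ranges of these neighbours overlapped in both groups, so their order was not resolved. Sc5d (167 ± 93.0 TPM) and Nsdhl (124 ± 25.5 TPM) followed in Control mice with overlapping ranges, and in M1 mice Nsdhl (221 ± 21.5 TPM) stood above Sc5d (174 ± 18.7 TPM) without overlap. Ebp was at place 7 in every mouse, with 76.7 ± 9.51 TPM in Control and 140.3 ± 18.4 TPM in M1 mice. Tm7sf2 (45.4 ± 4.65 and 86.8 ± 21.2 TPM) and Lss (41.8 ± 19.4 and 57.2 ± 13.1 TPM) were the lowest, with ranges that overlapped in Control but not in M1 mice.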

How the data were processed

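Ovarian polyA RNA of 3 Control and 3 M1 mice was measured by sequencing, and each library was grouped by its treatment label. Per the labels and the study's methods, the authors used FastQC and MultiQC for quality control, Trimmomatic 0.38 for trimming, HISAT2 2.1.0 for alignment (GRCm38) and featureCounts 2.0.0 for counting. The counts deposited by the authors are raw whole numbers, and whether counting used strand is not given in the sources used here. TPM and FPKM, also deposited, were derived by the authors from these counts and a length per gene. TPM served for levels between genes and for sums of cell type markers, and FPKM only for gene lengths and as an alternative.

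Tests were run in R 4.3.3 on the counts, with edgeR 4.0.16 (TMM, filterByExpr with a minimum count of 10 and a minimum total of 15, quasi-likelihood test), limma 3.58.1 and DESeq2 1.42.0. The SE was taken from the fold change and its F statistic. The common biological coefficient of variation was 0.257. The fits were tested on simulated data with fold changes larger than those of the 9 genes. That test does not cover changes of their size. Exons came from GENCODE vM21, promoter windows from RefSeq, and copies were sought with blastn 2.17.0 among transcripts, which found short matches for Dhcr7 and Msmo1 and the exon bases that Tm7sf2 shares with Vps51. The members and the lists were chosen with earlier results of these data known. Besides the 9 members, named genes are up to 4 of each other list with the smallest p, fixed genes (Srebf2, Star and Cyp11a1 among them) and the 10 most like the members. Some genes that this rule allows are not reported here. Idi1 and Akr1c18 were named after their values were seen. The alternatives tried were DESeq2, limma-voom, RLE size factors, 2 other filters, a replicate block, an offset for gene length (lowess span 0.5), limma on log2(TPM + 1), no fold change minimum and each library left out.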

Additional observations from a re-analysis of the deposited data

How the results depend on the processing

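Over all genes 1 gene was called by edgeR, against 485 with DESeq2, 155 without a filter on low counts and 896 without Control mouse 1 and M1 mouse 2, a setting chosen after seeing the data. Of the 9 late genes 0 were called, against 3 in each of these settings. Leaving out each mouse in turn gave 0 to 782 genes called and 0 to 3 late genes, where the highest count in both was without Control mouse 1. It also gave 3 to 5 late genes higher at an unadjusted p under 0.05, beside 4.43% to 12.3% of all genes, 4 to 5 higher in every M1 mouse, beside 14.6% to 22.4%, and a median log2 fold change of 0.43 to 0.89. The sign changed for Sc5d (-0.16 without Control mouse 1), Hsd17b7 (-0.02 without Control mouse 3 and -0.15 without M1 mouse 1) and, without both Control mouse 1 and M1 mouse 2, for Sc5d (-0.30) and Dhcr7 (-0.26). The range over single mice left out was -0.16 to 0.68 for Sc5d and -0.15 to 0.73 for Hsd17b7. The cause was not tested. RLE size factors, limma-voom, at least 10 counts in every library, the length offset, limma on log2(TPM + 1) and no fold change minimum left 1 gene and 0 late genes called, with medians from 0.51 to 0.72.

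The deviations of mice from their group mean had r = 0.067, 0.106 and -0.255 between mice with the same number. Between mice with different numbers r ran from -0.347 to 0.345. With 3 mice in a group, these values cannot show whether the numbers mark a pairing. With the replicate block 0 genes and 0 late genes were called, and the median was 0.69. The smallest count of the 9 genes in a library was 631, so each was detected in every mouse.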
